A study of Caenorhabditis elegans with 2 samples.

Results

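The regions described here are 1562 promoter entries of a worm transcription factor ChIP-seq experiment whose signal fell just below that of the deposited set of reproducible peaks. They were chosen by the deposited pooled signal: an entry of the pooled list of 30000 entries was taken if its signal was 27.3 or more and below 48.4, if it was not in the optimal set of 2409 peaks, and if its summit lay no further than 1000 bp before or 200 bp after the start of a protein-coding gene. The signal band held 3585 entries, so 1562 of them were members and 2023 had their summit outside every promoter window. Levels of pooled signal are therefore given as a description, and no test was made on them.

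Chromatin immunoprecipitation followed by sequencing (ChIP-seq) was carried out for the W03F9.2 protein fused to enhanced green fluorescent protein (eGFP) in whole Caenorhabditis elegans of strain OP215, genotype unc-119(ed3) III; wgIs215, in which the fusion gene is an integrated transgene. The worms were a mixture of both sexes at the L4 larval to young adult stage, and both replicates are biological replicates of this 1 group. The antibody field of the labels names W03F9.2 while the description names the eGFP fusion, and worms without the fusion were not analysed here. Whole animals were used, so signal from a few strongly occupied cells and signal from many weakly occupied cells cannot be told apart.

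In ChIP-seq, DNA fragments bound by a protein are enriched, sequenced and mapped, and a caller reports the places where they pile up, each with a summit at the highest point. Callers in reproducibility analysis are run permissively, so that the list holds real binding sites and background together, and the ranks of the same place in replicate experiments are compared to choose how far down the list to read. Promoters are the regions at and before a gene start where the transcription machinery assembles, and worm genes often lie back to back with a promoter region shared between neighbours. The GATA motif is read by GATA factors, which in the worm are best known from the intestine, and forkhead motifs are read by forkhead factors such as DAF-16.

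To show the DNA under these entries, the summit base with 50 bases on each side is given for members of highest signal and of best replicate support and for 2 strong optimal-set peaks. All are on the plus strand of the ce11 genome build, 5′ to 3′, as read from the RefSeq copy of WBcel235. Capitals mark matches, on either strand, to any of 10 short motifs: the GAGA repeat GAGAGA, the splice acceptor consensus TTTCAG, the TATA box TATAAA, the E-box CACGTG, the GATA site TGATAA, the forkhead site GTAAACA, the GC box GGGCGG, the element TTTGAA from cell cycle promoters, the T block TTTTTT and the CpG repeat GCGCGC. The 3 members of highest signal lay in the promoters of din-1, a nuclear receptor corepressor, at chrII:11634356-11634456, of rbm-26, an RNA-binding protein gene, at chrIII:5710826-5710926, and of catp-8, a cation-transporting ATPase gene, at chrIV:11479270-11479370.
din-1: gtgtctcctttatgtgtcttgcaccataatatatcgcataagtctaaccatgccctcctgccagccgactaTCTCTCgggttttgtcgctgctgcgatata
rbm-26: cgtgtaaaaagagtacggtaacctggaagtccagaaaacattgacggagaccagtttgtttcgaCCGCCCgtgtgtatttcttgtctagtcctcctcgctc
catp-8: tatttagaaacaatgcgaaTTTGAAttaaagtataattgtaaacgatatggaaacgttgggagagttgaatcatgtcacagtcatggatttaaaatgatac
The GC content of these windows was 47.5% at din-1, 48.5% at rbm-26 and 29.7% at catp-8, and the windows held 5, 7 and 3 CpG dinucleotides.

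For comparison, the 2 strong optimal-set peaks lay in the promoters of sqd-1, an RNA-binding protein gene, at chrIV:6323822-6323922, and of Y17G9B.5 at chrIV:4750026-4750126. Their pooled signals were 2453 and 591.
sqd-1: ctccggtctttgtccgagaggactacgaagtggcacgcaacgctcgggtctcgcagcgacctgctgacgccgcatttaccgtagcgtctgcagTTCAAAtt
Y17G9B.5: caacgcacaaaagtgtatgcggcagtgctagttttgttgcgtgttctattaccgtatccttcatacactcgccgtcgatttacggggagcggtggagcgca
The GC content was 58.4% at sqd-1 and 51.5% at Y17G9B.5, with 12 and 10 CpG dinucleotides. All 3 members had fewer CpG dinucleotides than either of these peaks.

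The members of best replicate support lay in the promoters of iff-2, the gene of a homologue of translation factor eIF5A, at chrII:8561596-8561696, of cbp-1, the gene of a CBP/p300 histone acetyltransferase, at chrIII:9765755-9765855, and of ZK1290.5 at chrII:7529406-7529506. All of these entries overlapped an optimal-set peak, so the replicate entry matched to them can belong to the stronger neighbour.
iff-2: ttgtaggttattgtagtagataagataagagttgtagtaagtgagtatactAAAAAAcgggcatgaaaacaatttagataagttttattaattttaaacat
cbp-1: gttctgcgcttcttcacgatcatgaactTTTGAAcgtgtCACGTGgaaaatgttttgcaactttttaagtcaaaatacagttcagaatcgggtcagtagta
ZK1290.5: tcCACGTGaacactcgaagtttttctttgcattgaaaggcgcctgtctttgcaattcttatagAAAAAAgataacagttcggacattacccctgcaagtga
Among members that overlapped no optimal-set peak, a selection made after the values were seen, 3 of the best supported were at cosa-1, a meiotic crossover gene, at chrIII:2725874-2725974, at fum-1, which encodes the citric acid cycle enzyme fumarase, at chrIII:7465512-7465612, and at dhs-30, a short-chain dehydrogenase gene, at chrX:17235960-17236060.
cosa-1: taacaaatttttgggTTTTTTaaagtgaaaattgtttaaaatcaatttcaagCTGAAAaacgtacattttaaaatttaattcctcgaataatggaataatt
fum-1: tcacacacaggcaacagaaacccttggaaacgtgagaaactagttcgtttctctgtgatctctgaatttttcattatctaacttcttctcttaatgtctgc
dhs-30: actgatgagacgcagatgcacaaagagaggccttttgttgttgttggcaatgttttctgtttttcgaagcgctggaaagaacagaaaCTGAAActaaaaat
The cosa-1 window was AT-rich, with a GC content of 20.8%, against 38.6% at fum-1 and 39.6% at dhs-30. This dhs-30 member and another that overlaps it were matched to the same entries, at rank 2039 in replicate 1 and 2129 in replicate 2.

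A last set of sequences shows the motif with the largest ratio between its shares in members and optimal-set peaks, described with its shares further on. These are the 4 members of highest signal that held at least 2 matches to TGATAA (reverse complement: TTATCA) and overlapped no optimal-set peak. They lay at T06A1.5 at chrV:1927150-1927250, at acs-4, an acyl-CoA synthetase gene, at chrIII:7167155-7167255, at ttr-44, a transthyretin-related gene, at chrV:13530858-13530958, and at srz-62, a chemoreceptor gene, at chrIV:3900046-3900146.
T06A1.5: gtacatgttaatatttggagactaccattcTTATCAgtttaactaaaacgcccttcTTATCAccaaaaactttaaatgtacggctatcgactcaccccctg
acs-4: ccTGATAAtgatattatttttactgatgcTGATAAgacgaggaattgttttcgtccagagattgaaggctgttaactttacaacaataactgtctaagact
ttr-44: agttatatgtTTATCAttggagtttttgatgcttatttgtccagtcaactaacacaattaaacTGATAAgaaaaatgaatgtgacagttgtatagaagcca
srz-62: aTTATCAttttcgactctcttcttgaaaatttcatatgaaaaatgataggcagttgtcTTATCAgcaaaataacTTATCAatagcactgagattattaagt
Their pooled signals were 43.4 at T06A1.5, 43.1 at acs-4, 40.7 at ttr-44 and 40.2 at srz-62. These lie in the upper part of the band.

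The members filled a stretch of the pooled list in which promoters gave way to other sequence. The share of summits in a promoter window was 69.7% in the optimal set (95% exact binomial interval 67.8 to 71.5), 43.6% in the band (41.9 to 45.2) and 22.9% among the 24001 weaker entries (22.3 to 23.4), whereas promoter windows covered 21.5% of the nuclear genome. In 5 equal slices of 717 band entries, from high to low signal, the promoter share was 50.2%, 45.6%, 42.4%, 41.6% and 38.1%. The share thus fell with signal within the band and was above the genomic cover at its lower edge. All intervals here cover counting error only, because neighbouring entries and genes are not independent. Read depths are not in the peak lists and are unknown.

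**Figure D1:**
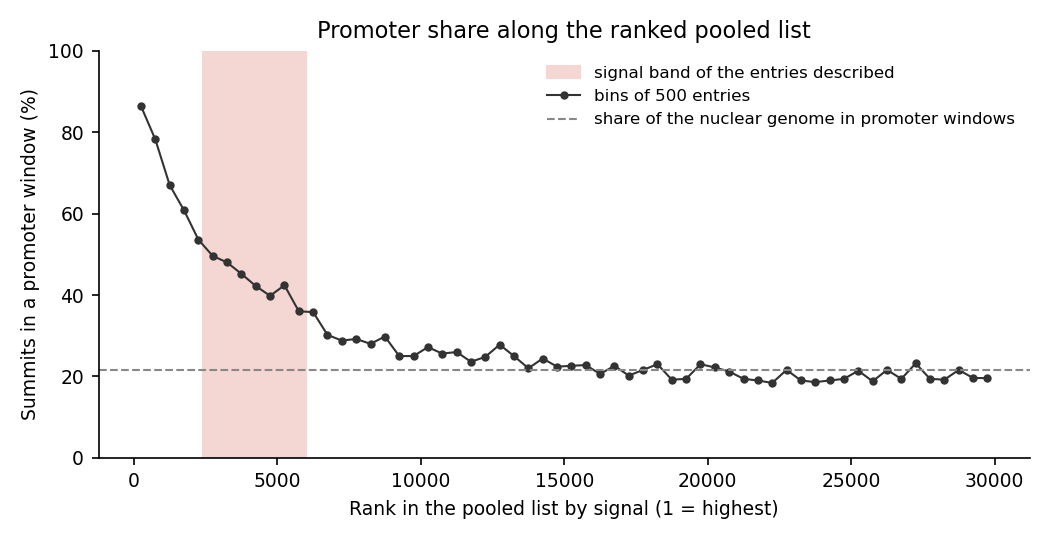
Share of summits in a promoter window (y axis, %) in bins of 500 entries of the pooled list, ordered by signal (x axis, rank). The shaded band holds the 3585 entries from which the members were taken, and the dashed line is the 21.5% of the nuclear genome that promoter windows cover.

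Pooled signals of members had a median of 34.8, against 76.3 for the 1679 optimal-set promoter peaks and 15.1 for the 5486 weaker promoter entries. At the upper edge, the member of highest signal, at din-1, had 48.4, and the nearest optimal-set promoter peak, at pqn-51, had 48.5. At the lower edge, the member at edc-3, a decapping enhancer gene, had 27.32, and the nearest promoter entry below, at W09G3.8, had 27.30. The 5 entries at C34C12.9, F13A7.11, madd-3, K11G12.6 and unc-61 lay between the band and the optimal set, with signals of 48.42 to 48.46, and belong to neither. The deposited −log10 q had a median of 2.09 among members, and 386 members stood at its highest value in the pooled list, 2.41, where all optimal-set peaks stood. The lowest member value was 1.26. All but 2 members were 350 bp wide, and 63 members overlapped an optimal-set peak. The summit of the nearest optimal-set peak was a median of 8643 bp away, and 729 members had none within 10000 bp.

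Members sat close to gene starts, but less tightly than optimal-set peaks. Their median summit position was -211 bp from the nearest start (95% interval of the median -228 to -200), where minus is upstream, against -196 bp for optimal-set promoter peaks (-207 to -186) and -325.5 bp for weaker promoter entries. These intervals of the first 2 medians overlap. The spread differed more than the centre: the quartiles were -432 and -91 bp for members and -325 and -107 bp for optimal-set promoter peaks. The stretch from 300 bp upstream to the start held 837 members (53.6%, 51.1 to 56.1), 65.2% of optimal-set promoter peaks (62.9 to 67.5) and 34.8% of weaker promoter entries. More than 500 bp upstream lay 318 members (20.4%, 18.4 to 22.4), against 13.04% of optimal-set promoter peaks. Downstream of the start lay 147 members (9.41%), against 5.18%. From the highest to the lowest slice of the band, the share of members within 300 bp upstream was 58.3%, 55.7%, 54.3%, 51.0% and 46.9%. The positions therefore spread out with falling signal inside the band as well.

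**Figure D2:**
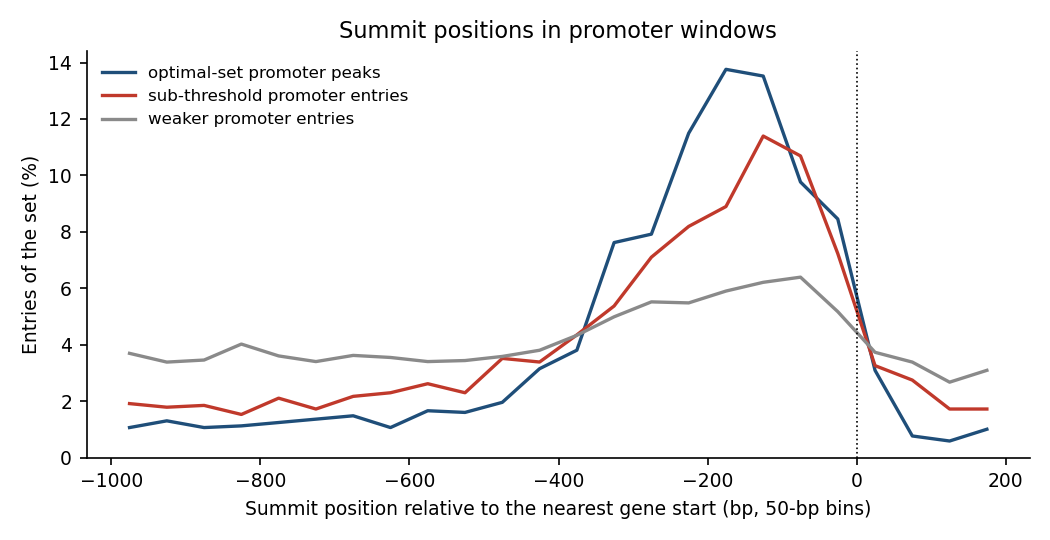
Percentage of entries (y axis) in 50-bp bins of summit position relative to the nearest protein-coding gene start (x axis, bp, minus is upstream), for members, optimal-set promoter peaks and weaker promoter entries. The curves of members and optimal-set peaks both peak within 300 bp upstream, and the member curve is lower there and higher further upstream and downstream.

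Promoters shared between neighbouring genes were less frequent among members. The summit lay in the promoters of 2 or more genes for 322 members (20.6%), against 669 optimal-set promoter peaks (39.8%) and 9.79% of weaker promoter entries. Genes on both strands shared the summit for 294 members (18.8%), against 37.5% and 8.46%. Members with genes on both strands had a median position of -126 bp, and members with genes on 1 strand one of -243 bp. Since the optimal set was more concentrated within 300 bp of a start, the part of position in this difference was not tested. Positions are measured to the nearest start, and the part of sharing in the difference of positions was not tested either.

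Replicate support was broad at a permissive depth and thin at a strict one. Each replicate list also holds 30000 entries, and the pooled list was made from the reads of both, so that overlap with them is not independent evidence. An overlap of at least 1 bp was found in replicate 1 for 1463 members (93.7%), in replicate 2 for 1516 (97.1%) and in both for 1418 (90.8%, 89.2 to 92.2). The corresponding share for both was 98.7% among optimal-set promoter peaks, 88.9% among band entries outside promoters (87.5 to 90.3) and 44.6% among weaker promoter entries, and over all pooled entries it was 48.5%. The full lists covered 10.5% and 9.72% of the nuclear genome. A single member, at acs-21, had no entry in either replicate list.

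Reading each replicate list down to rank 5999, as deep as the lower edge of the band lies in the pooled list, left 539 members with support in both replicates (34.5%, 32.1 to 36.9). That share was 93.3% among optimal-set promoter peaks, 29.8% among band entries outside promoters (27.8 to 31.8) and 13.2% over all pooled entries. The optimal set is a set of reproducible peaks, so its share is given as a description only. Another 312 members (20.0%) had an entry of that rank in replicate 1 alone, 546 (34.96%) in replicate 2 alone and 165 (10.6%) in neither. More members thus had their support in replicate 2 alone than in replicate 1 alone. The same held for band entries outside promoters (36.5% and 20.8%) and optimal-set promoter peaks (5.24% and 1.43%). Among weaker promoter entries the shares were 8.06% and 9.19%. The share supported in both at this depth was 65.0% in the highest slice of the band and 11.7% in the lowest.

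At the depth of the optimal set itself, the first 2409 entries of each replicate, 48 members (3.07%) had support in both, against 67.6% of optimal-set promoter peaks. Of these 48, 42 were among the 63 members that overlapped an optimal-set peak. Among the 1499 members that overlapped none, 6 (0.40%) had it, 198 (13.2%) had it in replicate 1 alone and 144 (9.61%) in replicate 2 alone. Members away from optimal-set peaks that reached that depth did so mostly in 1 replicate at a time. Members were chosen outside the optimal set and below its pooled signal, which was made from both replicates. That choice limits how many could reach this depth in both, so no conclusion is drawn from these counts. The 67.6% is a description too, because the optimal set is a set of reproducible peaks.

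The matched ranks of members varied widely. In replicate 1 the median rank was 5028 (quartiles 2921 and 8949) and in replicate 2 it was 4305.5 (3001.75 and 6470.25). Matched signals ran from 5.35 to 94.5 with a median of 15.2 in replicate 1, and from 6.26 to 125 with a median of 22.2 in replicate 2. The 2 lists are scaled separately, so their signals are set side by side and ranks are compared. Over the 1418 members matched in both, the log2 ratio of replicate 2 to replicate 1 signal had a median of 0.55 and an SD of 0.85, against 0.68 and 0.64 for optimal-set promoter peaks. Across matched members the replicates had a Pearson correlation of log2 signals of -0.06 and a Spearman correlation of -0.14. Across optimal-set promoter peaks these were 0.70 and 0.57. Among the 1355 matched members that overlapped no optimal-set peak they were -0.27 and -0.26. Among the 63 that overlapped one, whose replicate values may be those of the stronger neighbour, they were 0.35 and 0.28. Band entries outside promoters, chosen within the same range of pooled signal, gave -0.06 and -0.12. The members were chosen within a narrow range of pooled signal, which was made from both replicates, so the values across members are a description only.

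**Figure D3:**
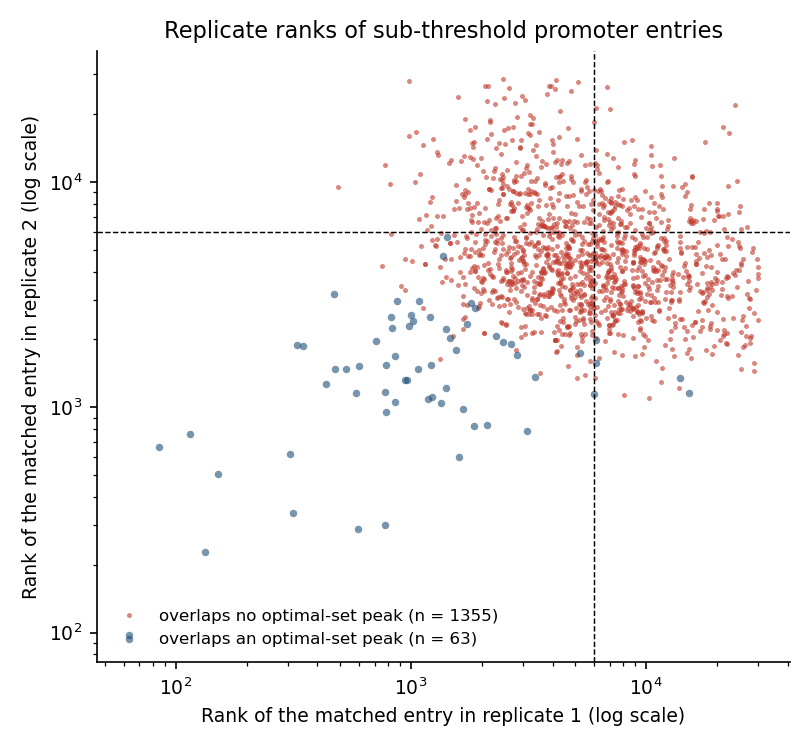
Rank of the matched entry in replicate 1 (x axis, log scale) against its rank in replicate 2 (y axis, log scale) for the 1418 members matched in both lists. Dashed lines mark rank 5999, and the 63 members that overlap an optimal-set peak lie mostly towards the lower left, among the strongest entries of both replicates.

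Members with the highest pooled signal show that replicate ranks could differ or be alike. The entry at din-1 had a signal of 34.6 and rank 911 in replicate 1 and a signal of 25.3 and rank 3461 in replicate 2. The entry at immp-1, a mitochondrial inner membrane peptidase gene, had 9.09 and rank 13757 in replicate 1 and 44.98 and rank 1217 in replicate 2. The entry at puf-3, a Pumilio-family RNA-binding protein gene, had 20.3 and rank 2751 in replicate 1 and 27.5 and rank 3014 in replicate 2. Replicate 1 ranked din-1 higher, replicate 2 ranked immp-1 higher, and both placed puf-3 at like ranks. The other 7 of the 10 highest were at rbm-26, catp-8, ncs-2, C29F7.3, acs-13, mrps-25 and gpa-7, with pooled signals of 48.2 to 48.4.

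The 10 members of best support were at iff-2, cbp-1, ZK1290.5, rgs-1, Y87G2A.1, Y82E9BR.3, tos-1, syx-5, cdk-7 and ani-1, and all 10 overlapped an optimal-set peak. The entry at iff-2 had a pooled signal of 47.8 but was matched to rank 63 in replicate 1 (signal 94.5) and rank 98 in replicate 2 (signal 125). The entry at rgs-1, a G-protein signalling regulator gene, was 2373 bp wide and had the same interval as an optimal-set peak with another summit. For all 10 entries, the replicate values may be those of the overlapping stronger peak. Among members overlapping no optimal-set peak, cosa-1 had a signal of 28.9 and rank 1335 in replicate 1 and 39.1 and rank 1641 in replicate 2. The entry at fum-1 had 27.4 and rank 1508 in replicate 1 and 34.5 and rank 2069 in replicate 2. Both replicates placed these 2 entries above rank 2409 although their pooled signals were 42.6 and 44.9.

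The most divergent members were at nhr-55, cdk-11.1, R53.5, ZK622.4, K02F2.5 and D1069.3. At nhr-55, a nuclear hormone receptor gene, replicate 1 gave 5.38 at rank 29792 and replicate 2 gave 31.4 at rank 2426. At cdk-11.1, a cyclin-dependent kinase gene, replicate 1 gave 5.56 at rank 28662 and replicate 2 gave 41.5 at rank 1449. At R53.5, replicate 1 gave 33.4 at rank 977 and replicate 2 gave 6.38 at rank 28130. Of the 6, replicate 2 was the higher at 4 and replicate 1 at R53.5 and K02F2.5.

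Most member genes had no optimal-set summit, as is true of most protein-coding genes. A member summit lay in the promoter of 1812 of 19985 protein-coding genes (9.07%), and an optimal-set summit in that of 2331 (11.7%). Both were found at 163 genes. These were 8.996% of the member genes, against 11.7% of all genes with an optimal-set summit. They were 6.99% of the optimal-set genes, against 9.07% of all genes with a member. The 1649 genes with a member and no optimal-set summit were 9.34% of the 17654 genes without an optimal-set summit, and either kind of summit was found at 3980 genes (19.9%). Most member genes, 1725, had 1 member entry and 87 had 2. A named locus, rather than a sequence name alone, was carried by 61.4% of the 1649 genes, 69.8% of the optimal-set genes and 53.7% of all genes. The W03F9.2 gene itself held no member: its 1 pooled entry was an optimal-set peak with a signal of 174 at rank 135.

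The X chromosome took a larger share of members than of optimal-set promoter peaks. It held 13.7% of members (12.03 to 15.5), 8.64% of optimal-set promoter peaks (7.34 to 10.1) and 13.7% of protein-coding genes. A member summit was found at 8.24% of X-linked genes and an optimal-set summit at 5.86%, and X was the only chromosome with more genes of the first kind than of the second. Chromosomes I and III held 17.9% and 18.6% of members against 14.4% and 13.2% of genes, and chromosome V held 16.8% of members against 24.99% of genes. On X, 35.3% of band entries were in promoters, against 42.2% to 46.96% on the autosomes. X-linked members lay at a median of -273.5 bp and autosomal ones at -203 bp. The mitochondrial genome, with 16 optimal-set promoter peaks, held no member.

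Across 35 gene lists, 24 had a larger share of genes with a member entry than the 9.07% of all protein-coding genes. Intervals lay wholly above 9.07% for cell cycle and replication, germline RNA regulators, zinc finger factors and RNA polymerase, TAF and Mediator genes. Those of the rest of the 24 include it. In the housekeeping lists that led the optimal set, most genes already had an optimal-set summit. An optimal-set summit was found at 68 of 81 ribosomal protein genes and a member at 6 (7.41%, 2.77 to 15.4). The 5 of them without an optimal-set summit were rla-2, rpl-11.1, rps-16, rpl-41.1 and rpl-27. Of 33 proteasome genes, 25 had an optimal-set summit and 2 a member (6.06%), of which pbs-4, the gene of a core beta subunit, had no optimal-set summit. The proteasome interval was 0.74 to 20.2, and both intervals include the 9.07% of all genes. Among genes without an optimal-set summit, a member was found at 5 of 13 ribosomal protein genes (38.5%, 13.9 to 68.4) and at 1 of 8 proteasome genes (12.5%, 0.32 to 52.7), against 9.34% of all such genes. The rpl-41.1 summit was nearer to M04F3.5, and the rpl-27 entry is shared with egl-30 and C53H9.4. Counting a summit for the nearest start alone, 4.94% of all ribosomal protein genes had a member, when 1504 of 19985 genes had one.

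At rla-2, which encodes an acidic ribosomal protein, the entry had a pooled signal of 45.5, with 21.7 at rank 2404 in replicate 1 and 31.6 at rank 2393 in replicate 2. That entry is shared with popl-7 and Y62E10A.24, and its summit was nearer to popl-7. At rps-16, a small-subunit protein gene, it was 34.0, with 24.8 at rank 1835 in replicate 1 and 10.8 at rank 14279 in replicate 2. At pbs-4 it was 46.6, with 12.8 at rank 7023 in replicate 1 and 34.0 at rank 2130 in replicate 2. The replicates placed rla-2 alike and the other 2 genes far apart.

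Members were also found at genes for growth and gene expression machinery. Except for RNA polymerase, TAF and Mediator genes, the intervals of these shares include the 9.07% of all genes. Translation factors had 7 of 41 (17.1%, 7.15 to 32.1) and aminoacyl-tRNA synthetases, which charge tRNAs, 6 of 32 (18.75%, 7.21 to 36.4). The respiratory chain had 6 of 39 (15.4%, 5.86 to 30.5), the secretory pathway 16 genes (15.4%, 9.06 to 23.8) and splicing factors 8 of 48 (16.7%, 7.48 to 30.2). Counting a summit for the nearest start alone, the splicing share was 6.25%, when 1504 of 19985 genes had a member. Their counts with an optimal-set summit were 27, 14, 24, 39 and 27. Synthetase genes without an optimal-set summit were sars-2, sars-1, vars-1 and lars-1, with pooled signals of 47.5, 45.1, 43.1 and 37.3. At sars-1 replicate 1 gave rank 3672 and replicate 2 rank 3170, and at vars-1 they gave 6492 and 3283. Replicate 2 ranked all 4 of these entries higher than replicate 1 did. RNA polymerase, TAF and Mediator genes had 11 of 61 (18.03%, 9.36 to 29.98), among them ama-1, the gene of the largest RNA polymerase II subunit, with a pooled signal of 47.5 at -539 bp.

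Cell cycle and replication genes had 16 of 64 (25%, 15.02 to 37.4), the highest share of the 35 lists, and 26 had an optimal-set summit. Of these 16 genes, 14 had no optimal-set summit, including cdt-1, a replication licensing gene, cdk-1, the mitotic kinase gene, and rfc-2, a replication factor C subunit gene, with pooled signals of 42.0, 41.2 and 41.0. At cdk-1 replicate 1 gave 23.7 at rank 2012 and replicate 2 gave 20.8 at rank 4744. At cdt-1 they gave 31.9 at rank 1090 and 12.7 at rank 10852. Replicate 1 placed both entries higher. Meiosis and DNA repair genes had 9 of 53 (16.98%, 8.07 to 29.8, and 7.55% with the nearest start alone), with msh-5, a crossover gene, at 43.9 and cosa-1 at 42.6. Germline RNA regulators had 10 of 48 (20.8%, 10.5 to 34.99), with puf-3 at 48.2, oma-2, an oocyte maturation gene, at 43.8 and pie-1, a germline fate gene, at 35.9. At pie-1 the ranks were 28629 in replicate 1 and 2612 in replicate 2, so that entry rested on replicate 2.

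Nuclear hormone receptors, zinc finger factors and histones had more genes with a member than with an optimal-set summit, whereas chromatin modifiers had 13 and 26, and Argonaute and small RNA genes 9 and 18. Nuclear hormone receptors are ligand-regulated transcription factors that form a large family in nematodes. Of 269, 32 had a member (11.9%, 8.28 to 16.4) and 13 an optimal-set summit, with no gene in common. Over all protein-coding genes, 163 of 19985 (0.82%) had both. These 32 genes had 32 separate entries, 16 of them on chromosome V, which holds 24.99% of all protein-coding genes. Of the entries, 11 were within 300 bp upstream, and 12 (37.5%) had support in the first 5999 entries of both replicates. Zinc finger factors had 8 of 38 (21.1%, 9.55 to 37.3) and 4, and histones had 11 of 82 (13.4%, 6.89 to 22.7) and 4. The intervals of nuclear hormone receptors and histones include 9.07%. The members at his-61 and his-62 and at his-3 and his-4 are shared by divergent pairs of core histone genes, and the 10 genes with the his prefix had 7 entries. The linker histone gene his-24 had a pooled signal of 45.4 at -7 bp, with 24.7 at rank 1851 in replicate 1 and 25.6 at rank 3380 in replicate 2. The list of F-box and MATH genes, whose products include substrate selectors of ubiquitin ligases, had 27 of 395 with a member (6.84%, 4.55 to 9.79), an interval that includes 9.07%, and 15 with an optimal-set summit. Within it, and picked out after the counts were seen, the fbxa family had 23 of 170 (13.5%) and 4, whereas 0.96% of fbxb genes, 2.08% of fbxc genes and none of 37 math genes had a member. The 23 fbxa genes had 20 entries, 13 of the genes were on chromosome III, and 3 entries had support in the first 5999 of both replicates. Chromosome III holds 13.2% of all protein-coding genes. How all genes of the fbxa and nuclear hormone receptor families spread over the chromosomes was not examined.

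**Figure D4:**
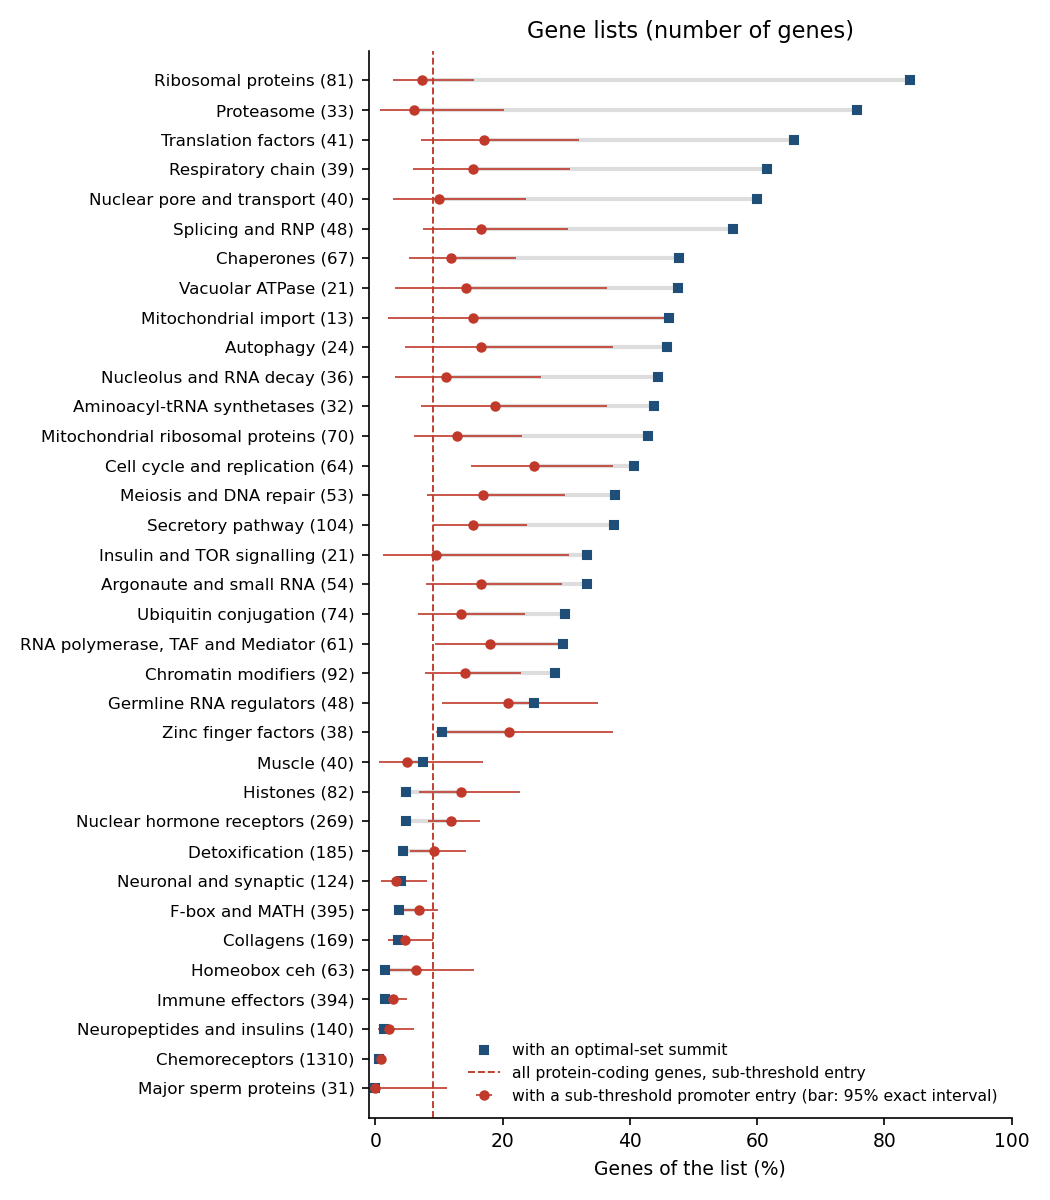
Percentage of genes of each of 35 lists (y axis, number of genes in brackets) with a sub-threshold promoter entry (red points, 95% exact intervals) and with an optimal-set summit (blue squares). Lists are ordered by the optimal-set share, the dashed line marks the 9.07% of all protein-coding genes, and the member shares vary far less between lists than the optimal-set shares do.

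Some families, picked out after their counts were seen, had members and no optimal-set summit at all. Peroxins, which build peroxisomes, had 5 of 11 genes with a member, acyl-CoA synthetases of the acs family, which activate fatty acids, 6 of 22, galectins of the lec family, which bind galactosides, 5 of 12, and transthyretin-related ttr genes 6 of 58 (10.3%). The share of all genes was 9.07%, and the ttr share was close to it. Within 300 bp upstream lay 1 of the 5 peroxin entries and 1 of the 6 acs entries. The same stretch held 4 of 5 lec entries and 4 of 6 ttr entries. Peroxin entries had pooled signals of 45.04 at prx-19, 43.5 at prx-14, 31.7 at prx-11, 31.4 at prx-6 and 30.6 at prx-13. At prx-19, whose product imports peroxisomal membrane proteins, the replicate ranks were 3371 and 4750, and at prx-14, a docking factor gene, 7745 and 2631. Of the 5 peroxin entries, 1, at prx-19, had support in the first 5999 of both replicates, against 2 of 6 acs entries and 2 of 5 lec entries. Galectin entries were strongest at lec-6 (47.5) and lec-1 (44.5). Glucuronosyltransferase ugt genes, which conjugate small lipophilic compounds, had 9 of 67 with a member and 1 with an optimal-set summit, and ugt-12 had both. The strongest, at ugt-20, had a pooled signal of 46.9 with replicate ranks of 4266 and 2208.

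Large families of receptors and secreted effectors had small shares. Chemoreceptors had a member at 11 of 1310 genes (0.84%, 0.42 to 1.497) and an optimal-set summit at 7, and immune effectors at 11 of 394 (2.79%) and 6. Neuropeptides and insulins had 3 of 140 (2.14%), neuronal and synaptic genes 4 of 124 (3.23%), collagens 8 of 169 (4.73%, 2.07 to 9.11) and muscle genes 2 of 40 (5%, 0.61 to 16.9). The intervals of the last 2 lists include 9.07%. Some of these entries are shared with a neighbour, such as srh-70 with the homeobox gene ceh-99 and col-2 with ndc-80, a kinetochore gene. None of 31 major sperm protein genes had a member, with a 95% exact upper limit of 11.2%. Detoxification genes, at 17 of 185 (9.19%), stood at the background. Insulin and TOR signalling had 2 of 21 (9.52%): rsks-1, the S6 kinase gene, with 47.4 at -675 bp, and daf-16, the forkhead factor gene, with 30.4 at -683 bp.

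The bases at member summits lay between those of optimal-set peaks and of weaker entries. The median GC content of the window of 50 bp on each side of the summit was 37.6% for members, 44.6% for 1663 optimal-set nuclear promoter peaks, 36.6% for band entries outside promoters, 31.7% for weaker promoter entries and 33.7% for windows centred 150 bp upstream of 19973 gene starts. The mean number of CpG dinucleotides was 4.22 for members (SD 2.75), 6.51 for optimal-set peaks (SD 2.95) and 3.07 upstream of all starts. Within the band, the median GC content of members was 39.6% in the highest slice of signal and 34.7% in the lowest. Members supported in the first 5999 entries of both replicates had a median of 38.6% and those supported in neither 33.7%. GC content thus moved with signal and with replicate support, and the part of base composition in the signal was not tested.

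The GATA site TGATAA was the motif with the largest ratio between its shares in members and in optimal-set peaks, while TTTTTT differed by slightly more percentage points. It was found in 239 member windows (15.3%, 13.6 to 17.2), against 5.89% of optimal-set promoter peaks, 16.02% of band entries outside promoters, 13.4% of weaker promoter entries and 11.8% of windows upstream of all starts. The members' interval included the share of the non-promoter entries of the same band. It was 11.1% in the highest slice of signal and 17.2% in the lowest, with 20.4% in the middle slice. It was 13.7% among members supported in both replicates at rank 5999 and 16.4% among those supported in neither. Members with the site had a median GC content of 33.7%, and 48 members held at least 2 matches, among them the 4 whose sequences are printed with capitals at T06A1.5, acs-4, ttr-44 and srz-62. The site is itself AT-rich, which lowers the GC content of windows that hold it. Weaker promoter entries and windows upstream of all starts had lower median GC contents than members (31.7% and 33.7% against 37.6%) and also smaller shares of the site. The part of base composition in this share was not tested.

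Of the other motifs, the E-box and the forkhead site were more frequent in members than in any other set. The rest lay between optimal-set peaks and windows upstream of all starts. The repeat GAGAGA was found in 15.4% of member windows, 17.7% of optimal-set and 8.42% of start windows. The CpG repeat GCGCGC was found in 4.93%, 9.44% and 1.43%. The E-box CACGTG was found in 3.71% (2.83 to 4.77), 3.13% (2.34 to 4.08) and 1.79%, and in 3.26% of band entries outside promoters. The forkhead site GTAAACA was found in 3.65% (2.78 to 4.70), 2.16% (1.52 to 2.98) and 1.78%. It was found in 2.03% of band entries outside promoters (1.46 to 2.74). The TATA box TATAAA was found in 10.9%, 6.19% and 13.4%, and TTTCAG in 10.7%, 8.06% and 15.1%. The GC box GGGCGG was found in 3.52%, 5.95% and 2.55%, TTTGAA in 24.9%, 22.7% and 29.6%, and TTTTTT in 43.1%, 33.3% and 45.8%. In all, 6 of the 10 motifs were more frequent in members than upstream of all starts. Matches were counted on both strands, motifs could overlap one another, and a match is a description of the letters and not of a bound site.

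**Figure D5:**
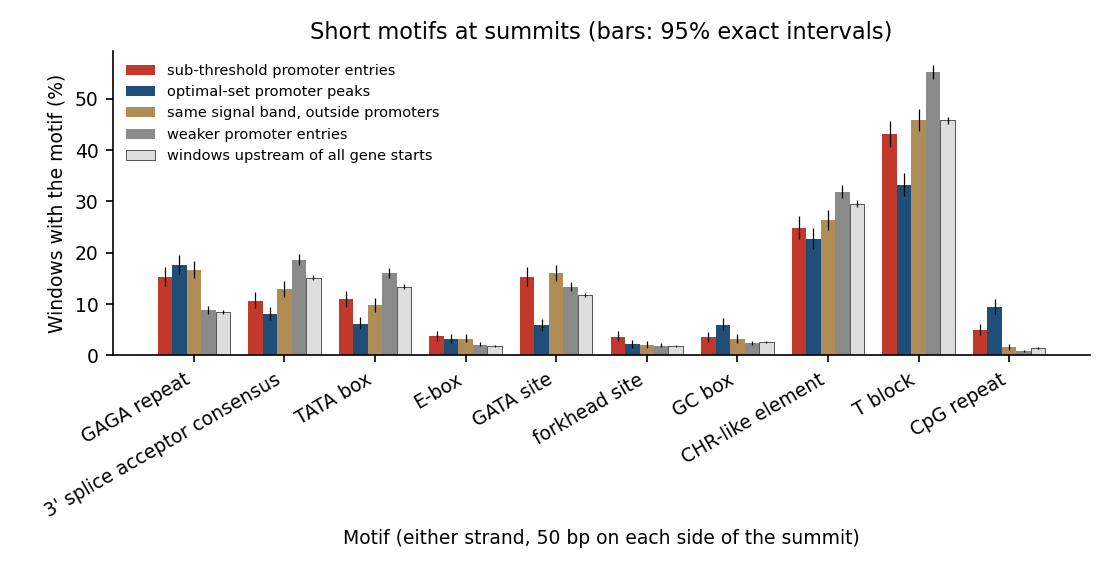
Percentage of windows of 50 bp on each side of the summit (y axis) that hold each of 10 short motifs (x axis) in members, optimal-set promoter peaks, band entries outside promoters, weaker promoter entries and windows upstream of all gene starts; error bars are 95% exact intervals. The GATA site stands at 15.3% in members against 5.89% in optimal-set peaks, whereas the GAGA repeat stands at 15.4% and 17.7%.

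The shares of members beside tRNA genes and annotated piRNAs were smaller than those of band entries outside promoters, with exact intervals that did not overlap. A tRNA gene lay within 200 bp of the summit for 19 members (1.22%), 2.14% of optimal-set promoter peaks and 122 band entries outside promoters (6.03%). A snoRNA gene did so for 7 members (0.45%) against 1.43% and 0.89%. A snRNA gene was near 6 members (0.38%) and a miRNA gene near 4 (0.26%), against 0.54% and 0.35% of band entries outside promoters, with overlapping intervals. An annotated piRNA lay near 1.02% of members, 0.83% of optimal-set promoter peaks and 3.56% of band entries outside promoters. The tRNA-side entries of the band were thus mostly outside the promoter windows of protein-coding genes.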

How the data were processed

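ChIP-seq peak lists of 1 group with 2 biological replicates were used. The authors deposited an optimal set, a pooled list of peaks and background and a list per replicate, in narrowPeak layout on the ce11 build. The deposited signal per entry and the deposited −log10 q are the authors' values, and no aligner, caller or setting is given in the sources used here. Lists on ce10 were not used here, and 0 sample columns were unused. Gene starts came from Ensembl release 115 (WBcel235), and sequences from RefSeq. Overlaps (at least 1 bp), positions, gene counts and motif matches were computed in Python 3.11.15 with pandas 2.3.3, NumPy 2.4.6 and SciPy 1.17.1, figures were drawn with matplotlib 3.10.9, and the code was checked on planted positions. A replicate match was the overlapping entry of best rank, so 1 replicate entry can be matched to more than 1 member. Intervals are 95% exact (Clopper-Pearson) intervals, and no p was computed, since there is no contrast between groups. Gene lists were matched by symbol.

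The members and gene lists were chosen with earlier results of these data known. Named were the 10 members of highest signal, the 10 of best support, the 6 of most divergent ranks, up to 4 genes per list without an optimal-set summit, the members inside each edge, and W03F9.2. Best-supported members away from optimal-set peaks, members with 2 TGATAA matches and gene families were named after values were seen. Alternatives were a window from 500 bp upstream to 100 bp downstream, the nearest start alone, the entry midpoint, a raised lower edge, each replicate left out, other overlap rules and a wider motif window. Leaving out members that overlap an optimal-set peak was chosen after seeing the data.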

Additional observations from a re-analysis of the deposited data

How the results depend on the processing

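No paired analysis was possible because the replicates form 1 group. With the lower edge raised to the band's median signal, 843 members at 1032 genes were left, the promoter share of the band was 47.02% and 94.7% of members were in both full replicate lists. With promoters from 500 bp upstream to 100 bp downstream, the promoter share was 33.4% and the median position -167 bp. Support in both replicates was 83.6% with an overlap of at least 50% of both entries, 67.1% with summits within 100 bp and 34.5% for the first 5999 entries. Taking the same ranks from 1 replicate alone gave 1128 to 1290 members, 1294 to 1499 genes, promoter shares of 37.4 to 40.7% and median positions of -252 to -210.5 bp. Without members overlapping an optimal-set peak, an alternative chosen after seeing the data, 1499 members at 1732 genes remained, with a median position of -208 bp and 90.4% in both lists. The number of lists above the all-gene share was 22 or 23 with the shorter window, the nearest start alone or the raised edge, against 24. The share of 8 of 35 lists moved under the raised edge, which also lowers the background, to 1032 of 19985 genes. Among them were zinc finger factors, to 7.89%, and germline RNA regulators, to 10.4%. The others were secretory pathway, splicing, chromatin modifiers, nuclear hormone receptors, F-box and MATH, and detoxification. In the shorter window 4 moved: nuclear hormone receptors to 8.18%, homeobox genes to 1.59%, chromatin modifiers to 7.61% and insulin and TOR signalling to 0. The background is lower there too, at 1365 of 19985 genes. With the nearest start alone 2 moved, splicing to 6.25% and meiosis and DNA repair to 7.55%, when 1504 of 19985 genes had a member. Motif shares were higher for all 10 motifs in a window of 100 bp on each side, where 6 of 10 were above all starts, as in the main window. With 2 replicates, unknown depth and no untagged worms, these peak lists cannot separate weak binding from background at a single entry.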
